A study of Mus musculus with 10 samples.

Results

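The genes described here are 8 regulators of the mitochondrial pathway of apoptosis, namely Bax, Bak1, Bcl2, Bcl2l1, Bcl2l11, Bid, Apaf1 and Casp9. They were taken from the table by symbol, a rule that uses no measured value, but the 8 genes were chosen with earlier results of these data known. All 8 were in the deposited table, as 12 of its 25152 entries and 8 of its 20045 gene symbols. Bcl2l11 had 3 entries, Bcl2 and Apaf1 had 2 each, and the entries of a gene held the same values. H3K4me2, a histone mark of active and poised promoters, and H3K27me3, a mark of Polycomb-repressed promoters, were measured by ChIP-Seq in mouse retina at E17.5, PN1, PN7 and PN15 (embryonic and postnatal days). The value is a normalized occupancy, namely the reads within 2.5 kb of a transcription start site (TSS), which the authors scaled to the library's total of mapped reads and deposited as whole numbers.

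Each of the 8 libraries used was of untreated whole retina, and the study's methods describe wild type C57BL/6j mice and 20 retinas for a preparation of nuclei. The sample labels instead carry the Pde6b rd1/rd1 strain for every library and write the embryonic stage as E17. The genotype was taken from the methods, and among the sample titles only that of the PN30 library names rd1. The antibody catalogue numbers of both marks stand the other way round in the labels and in the methods, and the mark was taken from the sample title. A H3K4me2 library of rd1/rd1 retina at PN30 and an anti-GFP library at PN56 were not analysed here. With 1 library for each mark and stage, no difference below has a replicate check and no p-value was computed. The intervals given are 95% counting intervals and cover counting error only.

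In the mitochondrial pathway, BH3-only proteins such as Bcl2l11 (Bim) and Bid sense a stress or a missing survival signal and act on the rest of the Bcl2 family. The prosurvival proteins Bcl2 and Bcl2l1 (Bcl-xL) hold back Bax and Bak1, which otherwise open the outer mitochondrial membrane and release cytochrome c. Apaf1 then binds cytochrome c and assembles the apoptosome, on which the initiator caspase Casp9 becomes active. In the rodent retina this pathway is known for the naturally occurring death of neurons in the first postnatal weeks. An H3K4me2 or H3K27me3 value at a promoter is not a measure of transcript or protein.

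The promoters of Bcl2l11, Bcl2, Bax and Casp9 are shown because these genes gave the highest H3K4me2 occupancy, the second highest, the largest positive H3K4me2 difference from E17.5 to PN15 and the lowest value at PN7. Each is the 250 bases before the RefSeq start (GRCm38.p6), found by exact match in mm9 and written 5′ to 3′ on the gene's strand, and none overlaps an exon of the mm9 annotation used. Capitals mark GC boxes (GGGCGG on either strand), the binding motif of Sp factors.
Bcl2l11 (chr2:127951524-127951773, plus strand): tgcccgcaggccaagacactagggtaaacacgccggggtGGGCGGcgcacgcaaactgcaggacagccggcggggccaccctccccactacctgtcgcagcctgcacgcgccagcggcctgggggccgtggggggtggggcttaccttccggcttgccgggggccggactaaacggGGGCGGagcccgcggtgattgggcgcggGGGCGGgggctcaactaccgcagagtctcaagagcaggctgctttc
Bcl2 (chr1:108610868-108611117, minus strand): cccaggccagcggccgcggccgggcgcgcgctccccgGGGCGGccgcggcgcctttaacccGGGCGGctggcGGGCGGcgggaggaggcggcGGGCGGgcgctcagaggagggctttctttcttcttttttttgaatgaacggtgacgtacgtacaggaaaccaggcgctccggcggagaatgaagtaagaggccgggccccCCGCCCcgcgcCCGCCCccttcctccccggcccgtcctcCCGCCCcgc
Bax (chr7:52722269-52722518, minus strand): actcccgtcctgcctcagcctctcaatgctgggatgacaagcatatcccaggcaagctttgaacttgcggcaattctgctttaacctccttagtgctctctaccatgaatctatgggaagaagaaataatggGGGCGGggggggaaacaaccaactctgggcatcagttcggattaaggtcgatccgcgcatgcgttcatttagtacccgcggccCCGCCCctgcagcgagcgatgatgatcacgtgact
Casp9 (chr4:141349277-141349526, plus strand): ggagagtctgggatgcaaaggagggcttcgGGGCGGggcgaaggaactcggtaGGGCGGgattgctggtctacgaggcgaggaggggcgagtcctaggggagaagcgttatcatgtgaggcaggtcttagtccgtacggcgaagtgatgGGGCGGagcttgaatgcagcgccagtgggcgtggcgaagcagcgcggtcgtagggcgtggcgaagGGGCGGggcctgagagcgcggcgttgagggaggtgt

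The Bcl2 window held 7 GC boxes and 36 CpG, that of Casp9 4 and 25, that of Bcl2l11 3 and 24, and that of Bax 2 and 14. The median over 32851 promoters was 6 CpG. RefSeq gave 11 starts for the 8 genes, and 7 of these 11 promoters held a GC box, which 32.7% of all promoters of this length hold. A CCAAT box stood in 2 of the 11 (33.8% of all) and TATAAA in none (12.4% of all). The letters TAATCC, bound by Crx, were in the Bax promoter (6.25% of all promoters), as was a p53 half-site (7.13% of all). GTAAACA, a forkhead motif, was in 1 promoter of Bcl2l11 (3.17% of all). Both strands were searched, and a match describes the letters only.

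Over the whole 5 kb window around the TSS, Bcl2l11 held 335 CpG, more than 99.7% of the 19326 genes with a window, whose median was 102. Bcl2 followed with 198, Bcl2l1 with 168 and Apaf1 with 161, whereas Bak1 held 69 (percentile 30.5). Across the genome the median H3K4me2 occupancy at PN7 was 50 over the 4839 genes with most CpG and 0 over the 4872 with fewest, while the H3K27me3 medians were 10 and 7 (at PN15 they were 10 and 11, in the opposite order). The part of CpG content in the values below was not tested.

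In mm9 the genes lie on 7 chromosomes. Bcl2l11 (chr2:127951774-127988283, plus strand) and Bcl2l1 (chr2:152593052-152657464, minus strand) share chromosome 2. Bax (chr7:52717065-52722268), Bak1 (chr17:27156755-27165954), Bcl2 (chr1:108434755-108610851), Bid (chr6:120841948-120866871) and Apaf1 (chr10:90452056-90545515) are on the minus strand, and Casp9 (chr4:141349527-141371891) is on the plus strand. The Apaf1 start lies 170 bp from that of Ikbip, and both had the same 8 values, so the occupancy at Apaf1 and at Ikbip cannot be told apart. Dnajc16 starts 2681 bp from Casp9, so the windows of the pair overlap in part. The Bak1 start lies within the gene body of Ggnbp1. No other gene had a start within 5 kb of one of the 8, and none of the 8 windows had a near-identical copy elsewhere in the genome.

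The libraries differed in ways that touch the comparisons. The median H3K4me2 occupancy over all symbols was 41, 27, 24 and 42 in order of stage, and 19.5% of entries were at 0 in the PN7 library against 0.362% to 2.52% in the others. The median of H3K27me3 lay between 9 and 11, and 3.70% of entries were at 0 at PN7 against 0.0755% to 0.159% at the other stages. PN7 thus had the most entries at 0 in both marks. Olfactory receptor genes, which belong to another sense organ, served as background: their 95th percentile was 4, 8, 1 and 7 for H3K4me2 and 21, 22, 22.4 and 29 for H3K27me3. Their H3K27me3 medians were 7, 7, 6 and 10. The paper reports that most of these genes, but not all, lack H3K27me3, so a value under this level is not shown to be free of the mark. Its own background was an anti-GFP control, which was not analysed here. The 5 rod genes used for the check of the tissue (Nrl, Nr2e3, Gnat1, Pde6b, Sag) had a summed H3K4me2 occupancy of 76, 84, 107 and 476 from E17.5 to PN15. The summed H3K27me3 at 5 progenitor genes (Ccnd1, Mki67, Top2a, Sfrp2, Fgf15) was 100, 203, 376 and 321, while their H3K4me2 summed to 464, 299, 450 and 391. Mki67 and Top2a stayed under the olfactory receptor level in H3K27me3 at each stage. H3K4me2 sums of other retinal cells were 339, 206, 288 and 155 over 6 ganglion cell genes, 196, 164, 155 and 170 over 4 amacrine genes, 183, 149, 173 and 234 over 4 bipolar genes and 204, 156, 139 and 178 over 3 Müller glia genes. In H3K27me3 the sums were 1607, 2236, 1695 and 954 for ganglion cells, 1249, 1597, 1267 and 660 for amacrine cells, 549, 606, 418 and 254 for bipolar cells, 106, 108, 82 and 55 for the rod genes and 35, 34, 72 and 164 for Müller glia. H3K4me2 sums at genes of other cells stayed low (12, 14, 3 and 22 over 4 microglia and blood genes, 27, 29, 7 and 9 over 3 endothelial genes, 26, 23, 4 and 14 over 3 lens genes), and none of these genes was above the olfactory receptor level at every stage. For 3 genes of the retinal pigment epithelium the H3K4me2 sums were 31, 28, 12 and 27 and the H3K27me3 sums 210, 200, 108 and 86. Most of the H3K4me2 came from Dct (29, 21, 12 and 24), which was above the olfactory receptor level at every stage in both marks. Marker genes of retinal cell types thus moved with the stages, and in whole tissue a mark gained or lost per cell and a change in cell shares cannot be told apart.

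All 8 genes carried H3K4me2 at every stage. Each exceeded the olfactory receptor level in the E17.5 library, as did 77.2% of all symbols, and in those of PN1 (72%), PN7 (72.1%) and PN15 (70.9%). Over the 4 stages together 66.9% of symbols did. The median over the 8 genes was 53.5, 40.5, 40 and 75 in order of stage, and 7 of the 8 were above the median of all symbols at each stage, the exceptions being Bid at E17.5 and PN15, Bax at PN1 and Casp9 at PN7. H3K27me3 was above its olfactory receptor level at all 4 stages for 1 of the 8, Bcl2l11 (15.5% of all symbols), and at any stage for 3, with Bcl2 and Bid at 1 stage each (30.5% of all symbols), both counts near the background.

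**Figure D1:**
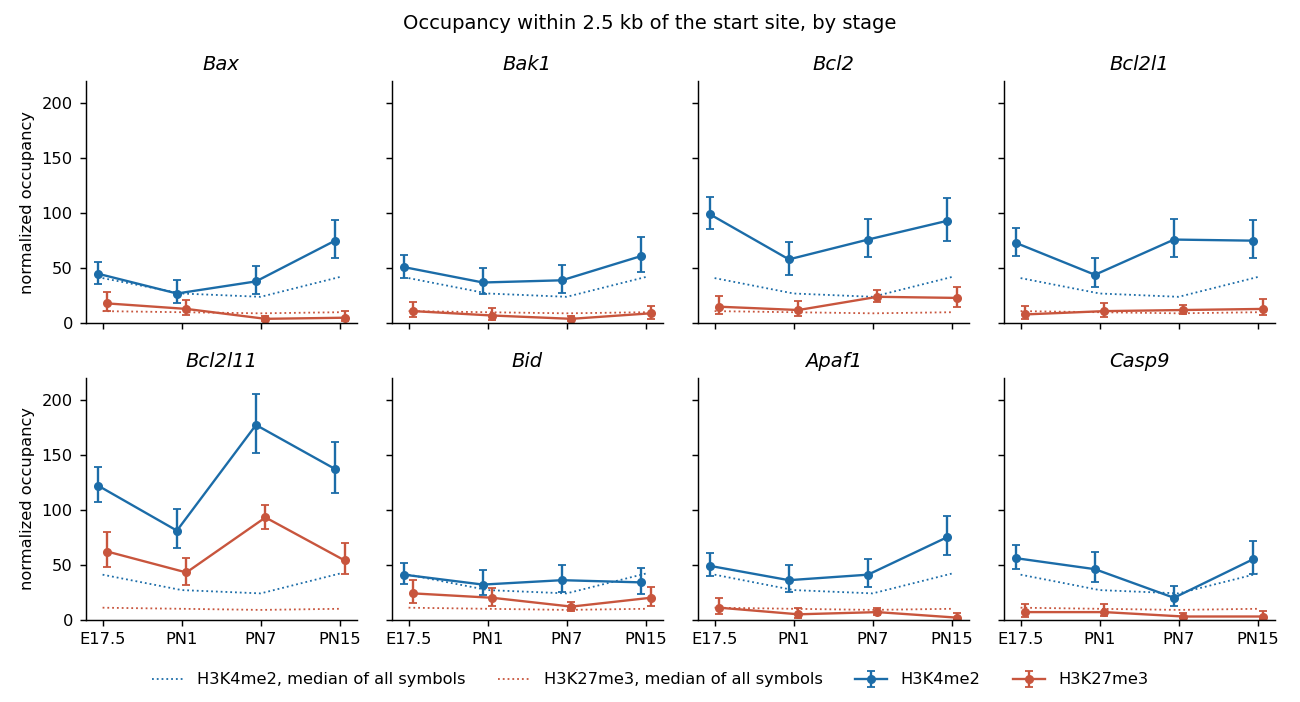
Normalized occupancy (y axis, linear) of H3K4me2 (blue) and H3K27me3 (red) at each stage (x axis) for the 8 genes, 1 library per point, with 95% counting intervals as bars and the median of all 20045 symbols as dotted lines. Bcl2l11 is the highest of the 8 in both marks at every stage, with 177 for H3K4me2 and 93 for H3K27me3 at PN7.

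Bcl2l11 encodes Bim, the BH3-only protein that responds to loss of survival factors. Its H3K4me2 occupancy was 122 (interval 107 to 139), 81 (65.1 to 100), 177 (152 to 205) and 137 (115 to 162) in order of stage. These values lay at percentiles 99.4, 98.9, 99.9 and 97.3 of all symbols, the highest of the 8 genes in every library. H3K27me3 at the same gene was 62 (47.5 to 79.5), 43 (31.8 to 55.9), 93 (82.9 to 104) and 54 (41.5 to 69.4), at percentiles 88.8, 84.4, 91.6 and 89.4. PN1 held its lowest and PN7 its highest value in both marks. The interval at PN7 overlapped that of no other stage for H3K27me3, and for H3K4me2 it overlapped that of PN15 only.

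Bid, the other BH3-only protein of the set, links death receptors to mitochondria when caspase-8 cleaves it. Its H3K4me2 occupancy was 41, 32, 36 and 34 in order of stage, which spanned less than the interval of the first value (32.5 to 51.5). H3K27me3 at Bid was 24, 20, 12 and 20. The E17.5 value exceeded the olfactory receptor level of 21, but its interval (15.4 to 35.7) included that level. Bid had the lowest H3K4me2 of the 8 genes at E17.5 and PN15.

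The prosurvival gene Bcl2 had the second highest H3K4me2 at each stage, with 99 (85.3 to 114), 58 (44.1 to 74.1), 76 (59.9 to 95.1) and 93 (75.1 to 114), and Bcl2l1 equalled it at PN7. The intervals of Bcl2 and Bcl2l11 overlapped at E17.5 and PN1 and were apart at PN7 and PN15. H3K27me3 at Bcl2 was 15, 12, 24 and 23, and the value at PN7 (interval 19.0 to 30.1) stood just above the olfactory receptor level of 22.4. Bcl2l1, which protects neurons as Bcl-xL, had an H3K4me2 occupancy of 73 (61.1 to 86.1), 44 (32.7 to 59.1), 76 (59.9 to 95.1) and 75 (59.0 to 94.0). Its H3K27me3 was 8, 11, 12 and 13, under the olfactory receptor level throughout.

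The pore-forming effectors were close to each other. At Bax the H3K4me2 occupancy was 45 (35.9 to 55.7), 27 (18.4 to 39.4), 38 (26.9 to 52.2) and 75 (59.0 to 94.0), the last apart from the other 3 intervals. At Bak1 it was 51, 37, 39 and 61, and the intervals of the last (46.7 to 78.4) and the first (41.2 to 62.2) overlapped. H3K27me3 at Bax was 18, 13, 4 and 5, and the interval of the first value (10.7 to 28.4) overlapped that of the last (1.92 to 11.4). At Bak1 it was 11, 7, 4 and 9. Neither gene passed the olfactory receptor level in this mark at any stage, although Bax moved from percentile 71.4 of all symbols at E17.5 to 14.4 at PN15.

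Apaf1, the scaffold of the apoptosome, had an H3K4me2 occupancy of 49 (39.7 to 60.4), 36 (25.4 to 49.3), 41 (29.4 to 55.6) and 75 (59.0 to 94.0). Its H3K27me3 was 11, 5, 7 and 2, and the last value stood at percentile 0.888 of all symbols. Casp9 had an H3K4me2 occupancy of 56 (46.0 to 68.1), 46 (34.3 to 61.3), 20 (12.2 to 30.9) and 55 (41.4 to 71.6). The PN7 interval lay below those of the other 3 stages, and Casp9 moved from percentile 77.8 at PN1 to 45.0 at PN7. It was the only one of the 8 with its lowest H3K4me2 at PN7 and the only one below the median of all symbols there. H3K27me3 at Casp9 was 7, 7, 3 and 3.

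**Figure D2:**
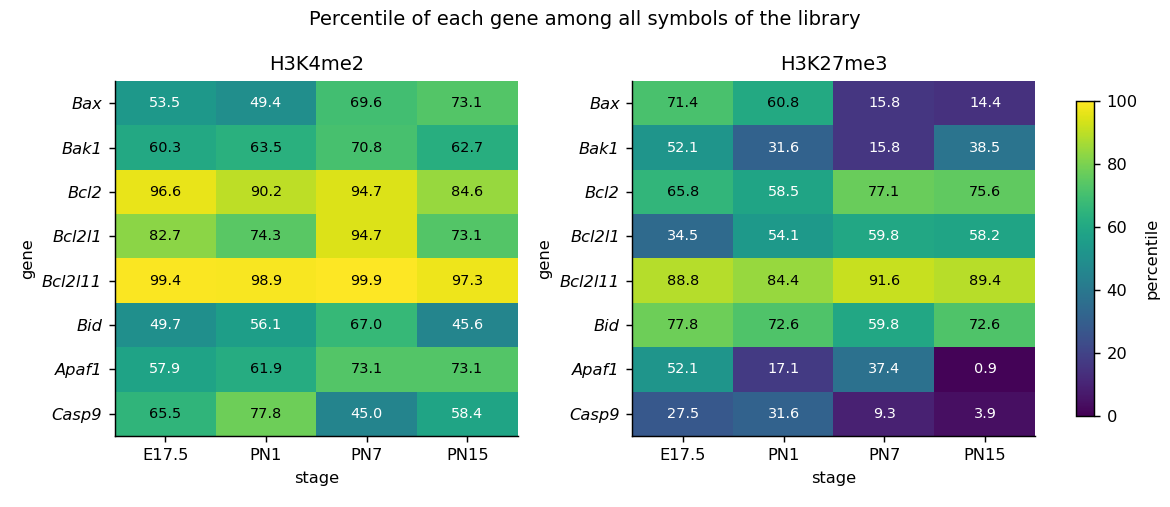
Percentile of each gene (rows) among all 20045 symbols of the same library, by stage (columns), for H3K4me2 (left) and H3K27me3 (right), with the colour scale running from 0 to 100. Bcl2l11 stays above percentile 97 in H3K4me2, and Apaf1 and Casp9 end at 0.9 and 3.9 in H3K27me3 at PN15.

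Set in order by H3K4me2 at PN15, Bcl2l11 (137) led Bcl2 (93), followed by Bax, Bcl2l1 and Apaf1 at 75 each, Bak1 (61), Casp9 (55) and Bid (34). The intervals separated Bcl2l11 from Bcl2, and Casp9 and Bid overlapped, as did every other pair of neighbours. At PN7 the order was Bcl2l11 (177), Bcl2 and Bcl2l1 (76 each), Apaf1 (41), Bak1 (39), Bax (38), Bid (36) and Casp9 (20). There the gap between the prosurvival pair and Apaf1 (59.9 against 55.6 at the nearest bounds) was the second place where neighbours did not overlap.

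Both marks together exceeded their olfactory receptor levels in Bcl2l11 and Bid at E17.5 (22.1% of all symbols), in Bcl2l11 at PN1 (20.9%), in Bcl2 and Bcl2l11 at PN7 (21%) and in Bcl2l11 at PN15 (15.2%). For H3K27me3 alone the same genes were above the level, 2 of 8 at E17.5 against 24.3% of all symbols, and 1, 2 and 1 of 8 at the later stages against 24.8%, 24.3% and 19.3%. The share of the 8 was near the background at each stage. With the 99th percentile of the olfactory receptor genes as the level, Bid at E17.5, Bcl2 at PN7 and Bcl2l11 at PN1 no longer passed. Bcl2l11 missed it narrowly (43 against 43.96).

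**Figure D3:**
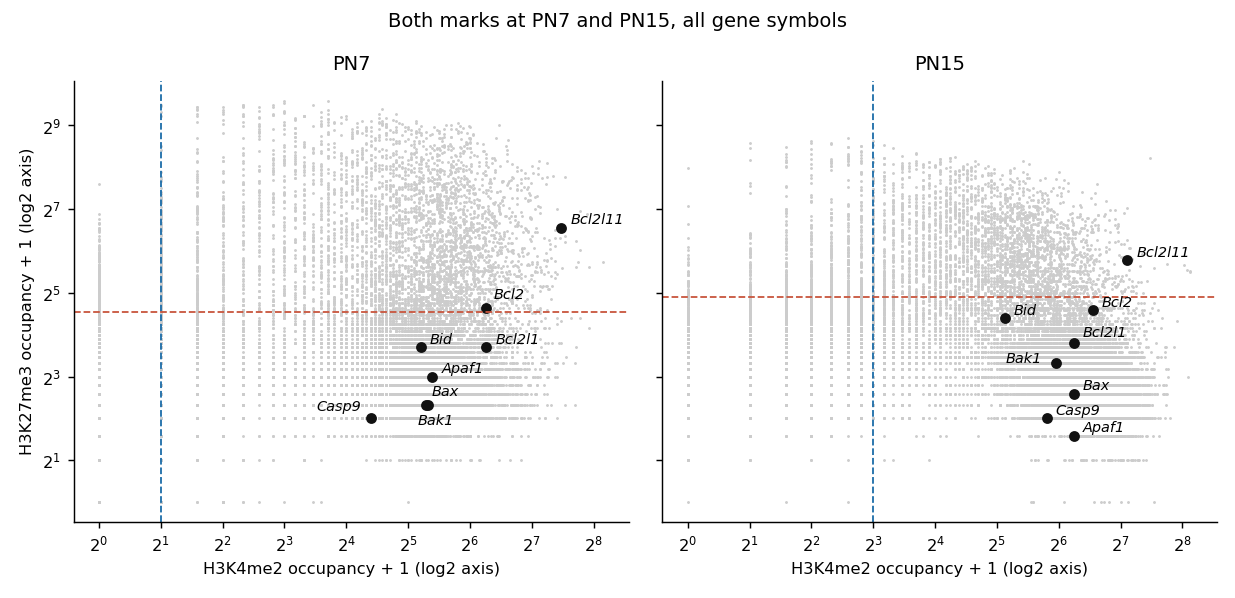
H3K27me3 occupancy plus 1 against H3K4me2 occupancy plus 1 (log2 axes) at PN7 and PN15 for all symbols (grey) and the 8 genes (black), with the 95th percentile of the olfactory receptor genes as dashed lines. Bcl2l11 lies above both lines at both stages, Bcl2 just above the H3K27me3 line at PN7, and the others below that line.

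Changes between stages are given as log2((later + 1)/(earlier + 1)) minus the median of the same quantity over all symbols, since the libraries differed in their medians. That median was -0.42 from E17.5 to PN1, -0.50 from PN1 to PN7, 1 from PN7 to PN15 and 0.13 from E17.5 to PN15 for H3K4me2, and 0, -0.16, 0 and 0 for H3K27me3. A gene was called higher or lower when it differed by at least 2-fold after the subtraction and its larger value exceeded the olfactory receptor level.

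From E17.5 to PN1 none of the 8 genes was called in either mark. In H3K4me2, 2.67% of all symbols were called higher and 0.873% lower, and in H3K27me3 0.659% and 0.21%. These splits turned to 1.57% and 5.75% without subtraction (H3K4me2) and to 0.259% and 0.524% with the median of marked symbols (H3K27me3). All 8 deposited H3K4me2 values were lower at PN1, and after the subtraction the 8 lay between -0.35 (Bcl2) and 0.14 (Casp9). For H3K27me3 the largest differences were those of Apaf1 (-1, from 11 to 5) and Bak1 (-0.58, from 11 to 7), both of values under the olfactory receptor level, and the interval of each included 0.

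From PN1 to PN7, Bcl2l11 was called higher in both marks, Bcl2l1 in H3K4me2 and Bcl2 in H3K27me3. At Bcl2l11 the H3K4me2 difference was 1.62 (interval 1.24 to 2.01), or 3.07-fold, and that of H3K27me3 was 1.26 (0.86 to 1.74), or 2.39-fold. The H3K4me2 difference of Bcl2l1 was 1.28 (0.73 to 1.83), which became less than 2-fold when the median of marked symbols only (-0.13) or no median was subtracted. The H3K27me3 difference of Bcl2 was 1.10 (0.32 to 2.03), from 12 to 24, and fell short of 2-fold with a pseudocount of 5 (0.89) and without subtraction (0.94). In this comparison 13.6% of all symbols were called higher and 6.38% lower in H3K4me2, and 2.21% and 2.04% in H3K27me3, so that the background share would give about 1 gene of 8 called higher for H3K4me2 and fewer than 1 for H3K27me3. Without subtraction the shares were 3.99% higher and 13.1% lower for H3K4me2 and 1.74% and 2.79% for H3K27me3.

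The other genes did not pass the rule between PN1 and PN7. The H3K4me2 difference was 0.98 at Bax (0.23 to 1.72), 0.88 at Bcl2 (0.39 to 1.41), 0.68 at Apaf1, 0.67 at Bid and 0.57 at Bak1. Casp9 stood alone below 0 at -0.66 (-1.54 to 0.06). Subtracting the median of marked symbols, or none, brought Casp9 past the rule as lower, with 46 at PN1 and 20 at PN7. Dnajc16, which shares part of the Casp9 window, had 24 and 30. H3K27me3 at Bax went from 13 to 4, a difference of -1.32 (-2.71 to -0.38) between values that were both under the olfactory receptor level.

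**Figure D4:**
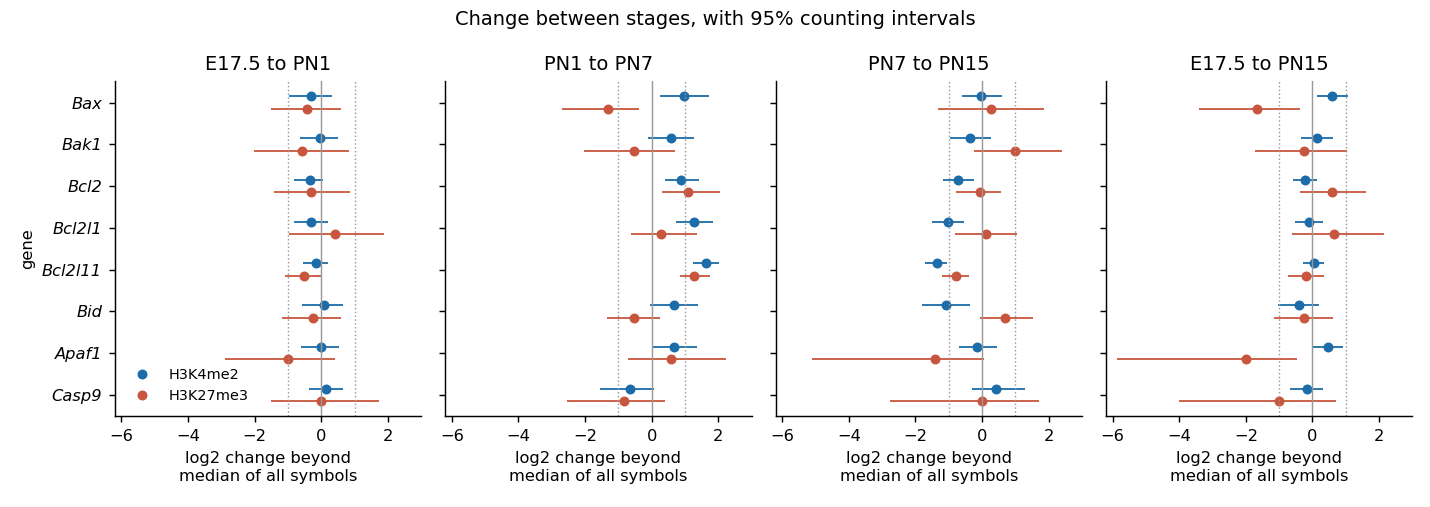
Difference between stages on the log2 scale beyond the median of all symbols (x axis) for the 8 genes (y axis), H3K4me2 in blue and H3K27me3 in red, with 95% counting intervals as lines and dotted lines at 2-fold. From PN1 to PN7 both points of Bcl2l11 lie beyond the upper dotted line (1.62 and 1.26), and from PN7 to PN15 its H3K4me2 point lies beyond the lower (-1.37).

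From PN7 to PN15, Bcl2l11 (-1.37, interval -1.70 to -1.04), Bid (-1.08, -1.80 to -0.37) and Bcl2l1 (-1.02, -1.50 to -0.54) were called lower in H3K4me2, against 13.6% of all symbols called lower, about 1 gene of 8, and 6.38% called higher. These calls rest on the median of 1 that was subtracted. As deposited, Bid went from 36 to 34 and Bcl2l1 from 76 to 75, and without the subtraction none of the 3 was called and Casp9 was called higher (20 to 55), with 31.7% of all symbols called higher and 1.60% lower. Bax, at -0.04 beyond the median, went from 38 to 75 as deposited. In H3K27me3 none of the 8 was called (1.22% of all symbols higher, 5.51% lower, or 2.81% and 0.968% with the median of marked symbols). Bcl2l11, the one gene with a value above the olfactory receptor level besides Bcl2, stood at -0.77 (-1.20 to -0.38), from 93 to 54. Apaf1 (-1.42, from 7 to 2) and Bak1 (1, from 4 to 9) reached 2-fold between values under that level, and the interval of each included 0.

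Between the first and the last stage none of the 8 genes was called in either mark. In H3K4me2, where 3.26% of all symbols were called higher and 8.84% lower, the differences ran from -0.40 at Bid (-1.04 to 0.19) to 0.59 at Bax (0.14 to 1.07), or 1.51-fold. Apaf1 followed at 0.47 (0.01 to 0.93), and the intervals of the other 6 included 0. Bcl2l11 stood at 0.03, and thus ended near where it had begun. In H3K27me3, with 2.89% of all symbols called higher and 8.68% lower (5.08% and 3.19% with the median of marked symbols), Apaf1 (-2.00, from 11 to 2) and Bax (-1.66, from 18 to 5) were past 2-fold with intervals below 0, but both values of each were under the olfactory receptor level and so were not called. Bcl2l1 (0.64) and Bcl2 (0.58) had the most positive values, with intervals that included 0.

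The rest of the pathway was described with 51 genes in 9 lists, the 8 included, all of them in the table. H3K4me2 was above the olfactory receptor level at every stage in 44 of the 51, against 66.9% of all symbols, and H3K27me3 in 10, against 15.5%. The BH3-only genes held 4 of these 10 (Bcl2l11, Pmaip1, Bik and Hrk, of 8 in the list) and the death receptor pathway another 4 of 8 (Fas, Tnfrsf1a, Tnfrsf10b and Tradd). No gene of the inhibitors of apoptosis (5 genes) or of the inflammatory and epidermal caspases (4 genes) passed at any stage in H3K27me3, against 30.5% of all symbols. The latter list also had no gene with H3K4me2 at every stage, and its 4 genes summed to 9, 20, 0 and 7.

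Between E17.5 and PN15, 2 of the 51 genes were called higher and 4 lower in H3K4me2, with a median of 0.03. Over all symbols 3.26% were called higher and 8.84% lower, so both counts stood near the background, and the 6 genes are described singly. Without subtraction 3 were called higher and 3 lower, against 4.38% and 7.71% of all symbols. Xiap, which binds and blocks caspases, Casp9 among them, had 20, 30, 24 and 80, a difference of 1.81. Bcl2l10, a further prosurvival family member, had 3, 3, 1 and 15 (1.87). Tnfrsf1a, the receptor for tumour necrosis factor, had 71, 51, 37 and 9 (-2.98), the lowest of the 51, and Fas, another death receptor, had 35, 23, 19 and 15 (-1.30). Casp8, the initiator caspase that both receptors engage, had 32, 24, 10 and 9 (-1.86). Birc5 (survivin), which also serves in cell division, had 82, 44, 44 and 42 (-1.08), and was not called without subtraction of the median (-0.95). By list, the death receptor pathway had 2 of 8 called lower, the 4 apoptotic caspases 1, and the 5 inhibitors of apoptosis 1 higher (Xiap) and 1 lower (Birc5).

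In H3K27me3, none of the 51 genes was called higher and 4 were called lower from E17.5 to PN15, with a median of -0.32. These counts were near those of all symbols (2.89% higher, 8.68% lower). The BH3-only genes Hrk (353, 476, 254 and 110, a difference of -1.67), Bmf (79, 89, 49 and 12, -2.62) and Pmaip1 (288, 381, 302 and 141, -1.03) were among those called lower, as was Tradd, an adaptor of Tnfrsf1a (285, 358, 203 and 117, -1.28). Symbols above the olfactory receptor level in both libraries had a median of -0.55 in this comparison, and with that median subtracted Bmf and Hrk were called lower, but Pmaip1 (-0.48) and Tradd (-0.73) were not. Bcl2l11, at -0.20, was not among the genes called. H3K27me3 summed over the ganglion, amacrine and bipolar cell genes was also lowest at PN15, and the part of cell shares in these differences was not tested.

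**Figure D5:**
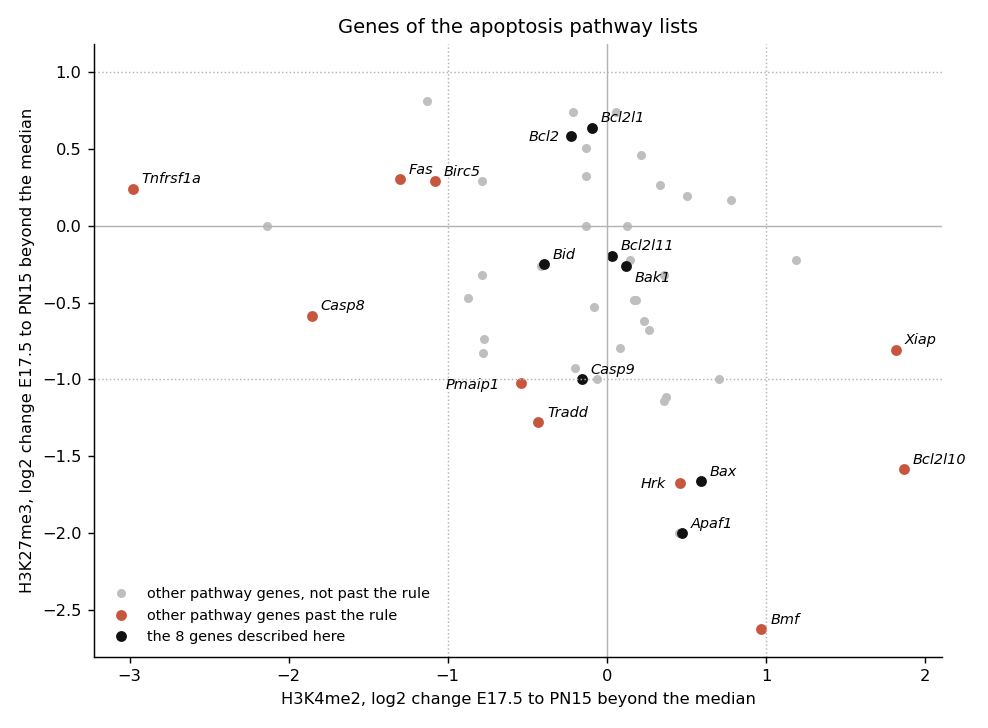
Difference from E17.5 to PN15 beyond the median of all symbols in H3K4me2 (x axis, log2) and H3K27me3 (y axis, log2) for the 51 pathway genes, with the 8 genes in black, other genes past the rule in red and the rest in grey, and dotted lines at 2-fold. Tnfrsf1a lies farthest left at -2.98, Bmf lowest at -2.62, and Bcl2l11 near the centre.

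From PN1 to PN7, 11 of the 51 genes were called higher in H3K4me2 and 2 lower, with a median of 0.57 (0.43 without the 8), against 13.6% of all symbols higher and 6.38% lower. Without subtraction 6 were called higher and 5 lower (3.99% and 13.1% of all symbols), and with the median of marked symbols 8 and 5 (5.59% and 10.6%). Of the 8 BH3-only genes 4 were called higher, the most in any of the 9 lists, and these were named after their values were seen. Besides Bcl2l11 they were Bbc3 (Puma), a target of p53 (74, 30, 98 and 74 in order of stage, a difference of 2.18 from PN1 to PN7), Hrk (48, 18, 56 and 73, 2.09) and Bad, a sensor of growth factor signals (91, 52, 106 and 109, 1.51). In each of these genes, as in Bcl2l11, PN1 held the lowest value of the 4 stages. That was no trait of these genes alone, since it also held for Bax, Bak1, Bcl2, Bcl2l1, Bid, Apaf1, Bok and Endog, among others. Casp9, Mcl1 and Casp2 were among the genes with their lowest value at PN7. The 4 BH3-only genes called higher were also so called without subtraction and with the median of marked symbols. From PN7 to PN15 the list had 4 called lower (Bid, Bcl2l11, Bbc3 and Bik) and none higher, and the 51 genes 12 lower and 2 higher, against 13.6% and 6.38% of all symbols. Without subtraction that turned to none lower and 1 higher (Bmf) in the list and to 1 lower and 14 higher of the 51, against 1.60% and 31.7% of all symbols, near the background. With a pseudocount of 5 the list had 2 lower (Bcl2l11 and Bbc3). Of the 51 genes 3 were then lower and 2 higher, against 6.71% and 5.18% of all symbols. From E17.5 to PN15 no BH3-only gene was called in H3K4me2, and Bmf was called higher without subtraction (1.10). From PN1 to PN7 the 4 apoptotic caspases of the lists had none called in either direction, with H3K4me2 differences from -0.92 at Casp2 to 0.50 at Casp6. Without subtraction 3 of the 4 were called lower, namely Casp2 (-1.42, from 50 to 18), Casp8 (-1.18, from 24 to 10) and Casp9 (-1.16, from 46 to 20), and these 3 were called lower with the median of marked symbols as well. In H3K27me3 Bcl2 and Bcl2l11 were called higher and none of the 51 lower (2.21% and 2.04% of all symbols).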

How the data were processed

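Per the study's methods, the authors aligned reads to mm9 with Bowtie 0.12.4, kept those with a single position, placed the midpoint of a 190 bp fragment for each read and counted midpoints up to 2.5 kb from RefSeq starts. The deposited scores are these sums after scaling to mapped reads and rounding by the authors, and tests for read counts were therefore not applied. Read totals are not given in the table. The rounding pattern showed the value of 1 read in 5 libraries (0.3125 to 0.946), and in the other 3 (H3K4me2 at PN7 and PN15, H3K27me3 at E17.5) it was taken as 1, its upper limit, which gives the widest interval. The pattern was least clear for H3K27me3 at PN7 (0.3125), so intervals that use that library are less sure. Levels carry exact Poisson and differences exact conditional binomial 95% intervals. The values of 3 reads lay between 0.9375 and 3.

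Where a symbol had several entries, the one with the largest sum was taken. Differences used a pseudocount of 1, and the background level was the 95th percentile of 1053 olfactory receptor entries. Alternatives were a pseudocount of 5, no median or that of marked symbols, the mean over entries, 1.5-fold, no filter and the 99th percentile. The genes named were the 8, genes with a start within 5 kb, up to 4 called genes in each pathway list from E17.5 to PN15, and the 3 symbols nearest to each of the 8 by Euclidean distance, without symbols that start within 5 kb. Members of the lists outside this rule (such as Bbc3, Bad, Bik, Casp2 and Casp6) were named after their values were seen. The 8 genes and the lists were chosen with earlier results of these data known. A few genes of the lists are not reported here and were left out of the list counts and sums. Promoter sequences and windows were read from RefSeq and mm9, and copies sought with minimap2 2.31-r1302. Python 3.11.15, numpy 2.4.6, pandas 2.3.3, scipy 1.17.1 and matplotlib 3.10.9 were used, and the steps were tested on simulated data.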

Additional observations from a re-analysis of the deposited data

How the results depend on the processing

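Of the alternative values for the counts of the 8 genes called or above the background level, 90 lay within 1.5 times the count given and 22 did not. Of the differences of single genes 372 moved by less than the distance from the middle of their counting interval to its bounds and 12 by more. Some of either kind lost a call, and no called difference changed sign. The pathway lists were put through the same alternatives after the data had been seen. Bcl2l11 was called higher from PN1 to PN7 in both marks under each alternative tried, with 1.12 to 1.63 for H3K4me2 and 1.10 to 1.33 for H3K27me3.

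For H3K4me2 from PN1 to PN7, the 2 genes called higher became 1 (Bcl2l11) and the 0 called lower became 1 (Casp9) without subtraction of the median or with that of marked symbols. At 1.5-fold 6 were called higher and 1 lower, against 27.26% and 11.05% of all symbols. Over all symbols the split went from 13.6% higher and 6.38% lower to 3.99% and 13.1% without subtraction, and to 5.59% and 10.6% with marked symbols. From PN7 to PN15 the 3 called lower became 1 with a pseudocount of 5, 0 without subtraction, when 1 was called higher, and 1 with marked symbols. The split there went from 6.38% higher and 13.6% lower to 31.7% and 1.60% without subtraction and to 8.21% and 9.70% with marked symbols. With a pseudocount of 5 that split was 5.18% and 6.71%. From E17.5 to PN1 it went from 2.67% higher and 0.873% lower to 1.57% and 5.75% without subtraction. From E17.5 to PN15, 1 gene (Bax) was called higher at 1.5-fold, against 9.58% of all symbols called higher and 15.7% lower.

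For H3K27me3 from PN1 to PN7, the 2 called higher became 1 with a pseudocount of 5 and 1 without subtraction, each time Bcl2l11. The split over all symbols went from 2.21% higher and 2.04% lower to 1.74% and 2.79% without subtraction. With a pseudocount of 5 that split was 1.71% and 1.79%. Without the filter on low values 1 gene was called lower from E17.5 to PN1 (Apaf1), against 8.25% of all symbols. From PN1 to PN7 it was 1 (Bax), against 9.33%. From PN7 to PN15 it was 1 (Apaf1), against 9.67%, with 1 higher (Bak1), against 14.97%. From E17.5 to PN15 3 were called lower without the filter (Bax, Apaf1 and Casp9), against 16.06%. At 1.5-fold 1 was called lower from PN7 to PN15 (Bcl2l11), against 11.54% of all symbols. With marked symbols the split of all symbols went from 2.89% higher and 8.68% lower to 5.08% and 3.19% from E17.5 to PN15, from 1.22% and 5.51% to 2.81% and 0.968% from PN7 to PN15, and from 0.659% and 0.21% to 0.259% and 0.524% from E17.5 to PN1, and the Bcl2l11 difference from E17.5 to PN15 was 0.35 against -0.20. Against the 99th percentile of olfactory receptor entries 1, 0 and 1 genes were above the level at E17.5, PN1 and PN7 in place of 2, 1 and 2. The cause was not tested.

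No paired analysis was possible because each mark and stage has 1 library, and for the same reason no library was left out in turn. The H3K27me3 values of Apaf1, Bax and Casp9 at PN15 rest on 2, 6 and 3 reads.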

Other observations

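The symbols whose 8 values were nearest to those of a gene were found by the Euclidean distance on the log2(value + 1) scale, leaving out symbols with a start within 5 kb, such as Ikbip, whose values equal those of Apaf1. Because they were chosen by these same values, a stage at which they peak or dip together follows in part from the choice. The nearest to Bcl2l11 were Tshz3 (distance 0.91), Alcam (1.10) and Erbb4 (1.39), against a median of 7.16 over all symbols. Tshz3, a zinc finger transcription factor, had H3K4me2 values of 99, 62, 185 and 139 and H3K27me3 values of 46, 63, 81 and 66. Erbb4, a receptor for neuregulins, had 105, 63, 151 and 87 and 35, 38, 54 and 52. In both genes, as in Bcl2l11, the largest H3K4me2 and the largest H3K27me3 value were those of PN7. Alcam, an adhesion molecule of growing axons, had 127, 99, 106 and 135 and 64, 67, 79 and 42, so that its H3K4me2 was highest at PN15.

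Nearest to Bcl2 were Trim46 (0.69), Vim (0.74) and Cdr2 (0.79), with a median of 4.36 over all symbols. Vim, the intermediate filament of Müller glia and progenitors, had H3K4me2 values of 100, 70, 71 and 65 and H3K27me3 values of 13, 12, 24 and 31. Nearest to Bcl2l1 were Map2k3 (0.45), Zfp316 (0.53) and Ptprz1 (0.54). Casp9 was nearest to Cox5b, a subunit of cytochrome c oxidase (0.35), with H3K4me2 values of 50, 42, 23 and 64, and then to 1110031I02Rik (0.66) and Hexdc (0.68), each also lowest at PN7. For Bax these were Tmem62, Ttpal and Nol11, for Bak1 Mfsd10, Tbl3 and Zc3hav1l, for Bid Gm5148, Smyd5 and Cnp, and for Apaf1 Gpn2, Manbal and Gorasp1, at distances from 0.32 to 0.79. Among the 8 themselves, Bax and Bak1 were the nearest pair (1.40), and Bcl2l11 and Casp9 the farthest apart (7.94).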
